A study of Drosophila melanogaster with 2 samples.

Results

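Castor peaks at divergent head-to-head promoters are the subject here: the 512 peaks whose summit, the position of highest signal, lay within 500 bp of a protein-coding transcript start with another gene starting within 1 kb upstream on the opposite strand and transcribed away from it. They were 512 of the 1109 summits found within 500 bp of any protein-coding start (46.2%, 95% Wilson interval 43.3 to 49.1%) and 27.2% of the 1879 peaks on the chromosome arms in the list that the authors call conservative, which holds 1880 peaks in all. Within that list the choice used the position of the summit and the gene annotation, not the height of the peak. The list itself keeps only peaks that passed the authors' threshold on the irreproducible discovery rate (IDR), so peak heights are those of entries that passed. The peaks come from chromatin immunoprecipitation and sequencing of whole Drosophila melanogaster embryos of strain cas-GFP, collected from 0 to 24 hours, in 1 group of 2 biological replicates. Both replicates carry the same insertion, which tags castor (cas) with green fluorescent protein (cas-GFP), and per the description an antibody against green fluorescent protein was used, while the antibody field reads cas. Both replicates carry the same strain identifier, no treatment is given, and a mock or input sample was not analysed here. Whole embryos mix all tissues and stages, so each peak is an average over them, and occupancy in few cells cannot be told apart from weak occupancy in many.

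Castor, a transcription factor with zinc fingers, is among the temporal factors, which the neural stem cells of the fly embryo (neuroblasts) make one after another as they age and divide. Head-to-head genes are neighbours on opposite strands whose starts face away from a shared upstream stretch, so that a single nucleosome-free interval can serve both promoters. In Drosophila such promoters belong largely to genes used by most cells, and many carry the DNA replication-related element, whose core is the palindrome TATCGATA, bound by the factor DREF, and of which the shorter words TATCGA and CGATA are parts.

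The stretches between both starts are shown for 6 of the strongest peaks, since these short intergenic gaps are the sequence under the summits. The choice was by signal among gaps of 60 to 300 bp that held the summit and no annotated exon. All are read 5′ to 3′ on the plus strand of the RefSeq Release 6 genome (dm6), run from the base after the left start (a gene on the minus strand) to the base before the right start (a gene on the plus strand), and have TATCGA and CGATA in capitals wherever they occur on either strand (overlapping words run together). CIA30/CG7601 is chr3R:29736746-29736964 and has its summit at base 114 of 219. Tcs5/CHMP2B is chr3L:5139396-5139618, with 223 bases and the summit 11 bp from the midpoint, and CG13390/CG17294 is chr2L:8376798-8377034 with the summit at base 84 of 237. Art3/mRpS10 is chr3R:15229409-15229664 with the summit at base 121 of 256, Shc/Atat is chr3L:9426759-9427009 with the summit at base 129 of 251, and Lamtor3/fws is chr2L:17481030-17481230 with the summit at base 108.
CIA30/CG7601: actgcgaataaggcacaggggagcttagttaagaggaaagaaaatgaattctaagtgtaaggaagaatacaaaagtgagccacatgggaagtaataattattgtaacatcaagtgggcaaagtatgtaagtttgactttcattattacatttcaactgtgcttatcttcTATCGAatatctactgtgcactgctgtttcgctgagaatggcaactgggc
Tcs5/CHMP2B: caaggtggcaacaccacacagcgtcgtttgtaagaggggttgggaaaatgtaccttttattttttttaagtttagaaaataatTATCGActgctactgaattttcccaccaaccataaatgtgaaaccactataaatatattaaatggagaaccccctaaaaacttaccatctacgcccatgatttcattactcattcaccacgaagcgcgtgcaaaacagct
CG13390/CG17294: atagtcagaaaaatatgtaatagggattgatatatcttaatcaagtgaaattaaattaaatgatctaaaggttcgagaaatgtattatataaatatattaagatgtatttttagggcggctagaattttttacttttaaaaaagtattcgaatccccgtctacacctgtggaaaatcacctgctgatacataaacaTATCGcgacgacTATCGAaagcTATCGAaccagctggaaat
Art3/mRpS10: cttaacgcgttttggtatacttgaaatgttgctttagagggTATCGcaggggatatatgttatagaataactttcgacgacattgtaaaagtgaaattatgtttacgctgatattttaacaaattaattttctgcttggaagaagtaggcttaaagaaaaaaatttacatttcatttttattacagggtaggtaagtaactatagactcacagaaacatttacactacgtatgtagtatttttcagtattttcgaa
Shc/Atat: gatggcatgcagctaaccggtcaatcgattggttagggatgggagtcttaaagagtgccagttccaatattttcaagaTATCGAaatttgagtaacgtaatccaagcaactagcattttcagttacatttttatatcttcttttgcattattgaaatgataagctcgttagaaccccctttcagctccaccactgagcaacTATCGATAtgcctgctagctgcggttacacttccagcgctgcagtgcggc
Lamtor3/fws: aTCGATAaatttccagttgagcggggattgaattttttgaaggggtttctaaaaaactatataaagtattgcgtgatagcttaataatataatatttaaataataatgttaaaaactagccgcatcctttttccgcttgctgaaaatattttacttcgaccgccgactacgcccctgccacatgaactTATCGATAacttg

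In these 6 gaps the nearest marked word stood 15 to 115 bp from the called summit, less than the fragment length of 200 to 800 bp. The centre of the nearest marked word was 15 bp from the summit in Tcs5/CHMP2B and 48 bp away in Shc/Atat, and the distance was 58 bp in CIA30/CG7601, 77 bp in Art3/mRpS10, 83 bp in Lamtor3/fws and 115 bp in CG13390/CG17294. In Lamtor3/fws the words were at the outer ends of the gap, with centres 5 bp from the fws start and 8 to 11 bp from the Lamtor3 start. The next gaps by signal under the same rule, not printed, differed. CG3437/CG3552 (signal 336) had no marked word, and l(2)gd1/Reps (signal 324) had one centred 3 bp from the summit. The share of G and C over the 6 gaps ran between 30.1% in Art3/mRpS10 and 43.0% in Shc/Atat.

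The strongest head-to-head peak lay 32 bp upstream of Ugalt, which encodes a transporter of UDP-galactose, on X (2703740-2704025), in the 719 bp gap shared with eIF2Bbeta, a subunit of the exchange factor of translation initiation factor eIF2. Signal is the authors' own measure of peak height, is not scaled between lists, and was 1067.5 in the conservative list. Taking the strongest overlapping entry of each replicate's own ranked list, the Ugalt/eIF2Bbeta peak had 476 in replicate 1 and 585 in replicate 2. It ranked 2 among all 1879 peaks, and 10 of the 20 strongest peaks and 31 of the 100 strongest were at head-to-head promoters, while 42 of the 100 strongest were at promoters without a head-to-head partner, called lone promoters from here on.

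Of the 20 strongest head-to-head peaks, 4 were at pairs with a gene of a mitochondrial ribosomal protein (mRpL41, mRpS23, mRpS10 and mRpL23). Of all 478 pairs with a summit, 13 held such a gene, and the difference was not tested. The peak between mRpL41, a protein of the large mitochondrial ribosomal subunit, and CG8079 (2R, 15217630-15217898) had signal 909, with 400.2 in replicate 1 and 516 in replicate 2. The peak between CIA30, an assembly factor of respiratory complex I, and CG7601 had signal 680.2, with 333 in replicate 1 and 354 in replicate 2, and its summit was 106 bp upstream of the CIA30 start and 114 bp upstream of the CG7601 start. The peak between CenG1A, a regulator of Arf-type GTPases, and mRpS23, a protein of the small mitochondrial ribosomal subunit (2L, 13835344-13835594), had signal 604, with 342 in replicate 1 and 268 in replicate 2. The peak of Art3, an arginine methyltransferase, and mRpS10 had signal 555, with 253 in replicate 1 and 298 in replicate 2. That of mRpL23 and CG9004 had signal 425, with 171 in replicate 1 and 254 in replicate 2. The peak at PNPase, which encodes a polynucleotide phosphorylase of mitochondrial RNA turnover, faced Gprk2, a kinase of G protein-coupled receptors, lay at 3R (31404539-31404775), 78 bp inside PNPase, and had signal 578, with 270.0 in replicate 1 and 308 in replicate 2. Of these peaks, only the CenG1A/mRpS23 peak was higher in replicate 1.

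The other strong peaks stood at genes of varied function. The peak of Tcs5 and CHMP2B, of which CHMP2B is a subunit of the ESCRT-III membrane complex, had signal 635, with 269 in replicate 1 and 369 in replicate 2. The peak of Chro, a chromatin protein of the interbands of polytene chromosomes, and Ssl1, a subunit of the general transcription factor TFIIH, at 3L (22878786-22879001), had signal 475, with 188 in replicate 1 and 284 in replicate 2, and its summit lay 102 bp inside Chro, beyond a gap of 105 bp. The peak of Shc, an adaptor of receptor tyrosine kinases, and Atat, an acetyltransferase of alpha-tubulin, had signal 454, with 175 in replicate 1 and 284 in replicate 2. The peak of Elp5, a subunit of the Elongator complex, and CG1275, at 3L (2257430-2257613), had signal 406, with 151 in replicate 1 and 261 in replicate 2. The remaining pairs of the 20 strongest were CG5611/Mtl, CG13390/CG17294, CG8320/Pex11ab, CG9147/Fbw5, CG11357/CG32243, Lamtor3/fws, CG3437/CG3552, tank/CG12194 and l(2)gd1/Reps, whose signals ran between 324 (l(2)gd1/Reps) and 573 (CG5611/Mtl). All 20 were in the thresholded lists of both replicates, 17 were higher in replicate 2 and 3 in replicate 1, 13 had the summit between both starts and 8 had a gap over 200 and up to 300 bp.

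Head-to-head promoters held more summits per base than lone ones. The 512 summits fell in 3.50 Mb of sequence that meets the rule, which is 146 summits per Mb, against 50.4 per Mb for the 597 lone promoter summits in 11.9 Mb and 6.33 per Mb for the 770 summits farther than 500 bp from any protein-coding start. The ratio of head-to-head to lone density was 2.91. Of the 5052 protein-coding genes that have a head-to-head partner (36.2% of 13968), 999 had a summit within 500 bp of a start (19.8%, interval 18.7 to 20.9%), against 492 of the 8916 genes without a partner (5.52%, interval 5.06 to 6.01%) and 10.7% of all protein-coding genes. The intervals over genes did not overlap, but the difference was not tested, since pairs share summits and genes are not replicates. A summit in a shared gap is counted for both genes here: both starts were within 500 bp of the summit for 436 of the 512 summits (85.2%). The density per base counts each summit once.

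The head-to-head share of promoter summits was higher in the conservative list than among ranked entries absent from it. It was 46.2% in the conservative list, against 24.8% (interval 24.1 to 25.5%) of the 15349 absent entries that lay within 500 bp of a protein-coding start, while head-to-head promoters make up 22.8% of promoter bases. In the thresholded list of replicate 1 the share was 43.6% (334 of 766 promoter summits), in that of replicate 2 it was 50.1% (369 of 737) and in the list pooled by the authors over both replicates it was 44.6% (582 of 1306).

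The 512 summits fell in 478 of the 2667 head-to-head pairs of the genome, which is 17.9% of the pairs, and these pairs contain 953 genes, which is 6.82% of all protein-coding genes and 18.9% of those with a partner. Of the 478 pairs, 445 had 1 summit, 32 had 2 and 1 had 3. The pair with 3 was stx/ras on X, with signals of 46.2, 3.13 and 53.8, where ras encodes the IMP dehydrogenase of guanine nucleotide synthesis; the summits of signal 46.2 and 3.13 were 202 bp apart and rested on the same entries of each replicate (28.3 in replicate 1 and 23.4 in replicate 2). Trmt6/Ent2, at 2L, had summits of signal 65.1 and 199 that lay 537 bp apart, and CG11247/Polr2H, at 3L, had summits of signal 134 and 3.47 that lay 199 bp apart with the same replicate entries. In all, 13 of the 512 peaks had a signal under 10, as did 15 of the 597 lone peaks.

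The share of pairs that held a summit varied with the distance between both starts. Pairs were classed by the shortest distance between their starts, also where the summit stood at other starts of the pair. Up to 100 bp, 69 pairs held a summit, while 57 summits had a gap of that length from their nearest start. Among the 542 pairs whose starts were over 200 and up to 300 bp apart, 154 held a summit (28.4%, interval 24.8 to 32.4%), against 17.9% of all pairs. The share was 16.1% of 429 pairs up to 100 bp apart and 14.3% of 357 pairs from there up to 200 bp. Beyond 300 bp it was 20.3% of 400 pairs up to 400 bp (interval 16.6 to 24.5%), 16.9% of 267 pairs up to 500 bp and 11.6% of 672 pairs up to 1000 bp (interval 9.40 to 14.3%). The class of 200 to 300 bp also had the highest share in the list of replicate 1 (20.3%), in that of replicate 2 (21.4%) and in the pooled list (31.0%). The median gap was 291 bp at the summits (interquartile range 221 to 455 bp, n = 512). Over all 2667 pairs it was 301 bp (163 to 502 bp). The gap at a summit is that from its nearest start and is counted per summit. Over all pairs it is the shortest gap of each pair, so the ranges are not like for like. Gap classes were compared by their intervals only, with no test.

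**Figure D1:**
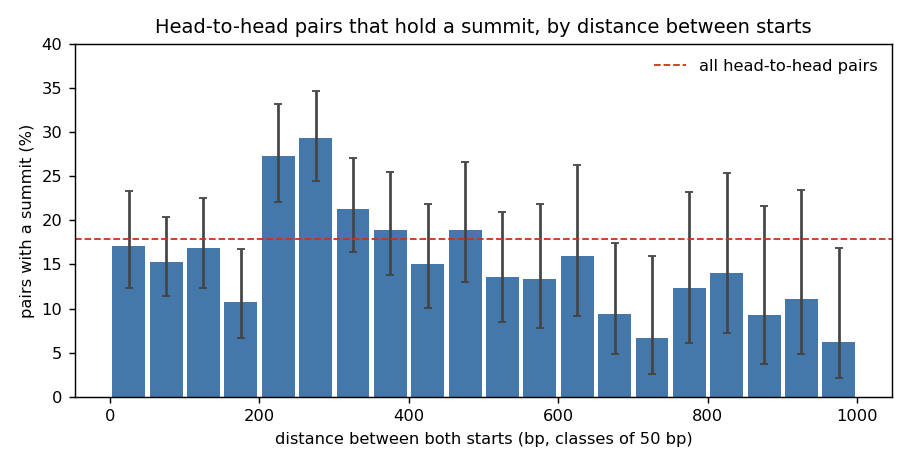
Percent of head-to-head pairs that hold a summit, by the shortest distance between both starts in classes of 50 bp. Whiskers are 95% Wilson intervals over pairs, and the dashed line is the 17.9% of all 2667 pairs. The classes of over 200 up to 250 bp (27.3% of 242 pairs) and over 250 up to 300 bp (29.3% of 300 pairs) stand highest.

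Summits lay mostly in the shared stretch. Of the 512 summits, 410 were between both starts (80.1%, interval 76.4 to 83.3%) and 102 were not. The median position was 75.5 bp upstream of the nearest start (interquartile range 113 to 18.5 bp upstream). For lone promoter summits it was 130 bp upstream (208 to 50 bp upstream). These positions are not alike by construction. A summit between both starts cannot lie farther from its nearest start than the midpoint of the gap, while lone summits are limited only by the 500 bp window. Upstream of their nearest start were 79.9% of head-to-head and 83.9% of lone summits. The nearest start was on the plus strand for 246 of the 512 (48.0%).

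Where the summit lay varied with the gap, here measured from the nearest start to the partner's start. Part of this is set by geometry, since a narrow gap leaves little room between the starts. A summit upstream of its nearest start also cannot lie beyond the midpoint of the gap. How much of the trend this accounts for was not tested. At gaps over 200 and up to 300 bp, 152 of 159 summits were between both starts (95.6%), with a median of 88 bp upstream of the nearest start and 167 bp upstream of the partner's start, and a median of 38 bp from the midpoint of the gap. At gaps over 500 bp, 86 of 100 summits were between the starts and the median was 79 bp upstream of the nearest start but 565.5 bp upstream of the partner's, so that in long gaps the summit was beside the nearest start and a median of 244.5 bp from the midpoint. At gaps up to 100 bp only 12 of 57 summits were between the starts, and the median summit lay 45 bp inside the nearest gene and 97 bp upstream of the partner's start. At gaps over 100 and up to 200 bp it was 30 of 53 summits, with medians of 16 bp upstream of the nearest start and 128 bp upstream of the partner's. At the shortest gaps the called position of the typical summit was thus inside the transcribed part of a gene and upstream of the other. These distances are smaller than the fragments of 200 to 800 bp given for both samples, so they need not resolve the side of a start. Of the 102 summits outside the gap, 68 had a gap of at most 200 bp. The median signal was 93.6 in the class of 200 to 300 bp, 75.4 at gaps up to 100 bp and 81.5 at gaps over 500 bp, with overlapping interquartile ranges.

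**Figure D2:**
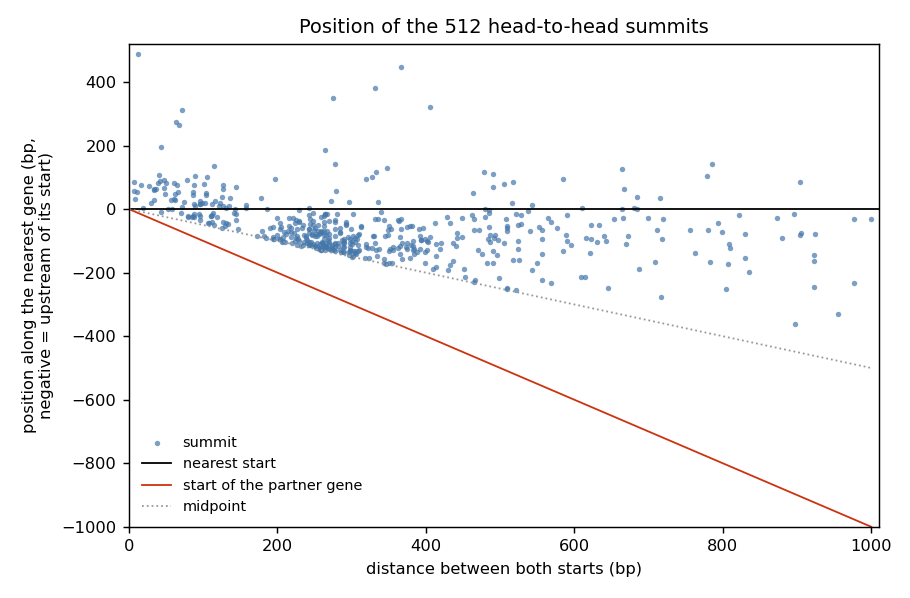
Position of each of the 512 summits relative to its nearest start (vertical axis, bp, negative is upstream) against the distance between both starts (horizontal axis, bp); lines mark the nearest start, the start of the partner gene and the midpoint. At gaps of 200 to 300 bp the points crowd at the midpoint line, beyond which no summit can lie by construction. At longer gaps they stay near the nearest start, with medians between 79 and 106.5 bp upstream.

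The shortest gaps with a summit were 6 bp at CG3032/CG4593 (signal 94.2, with 48.4 in replicate 1 and 44.3 in replicate 2) and at HP1b/CG7246 (signal 57.7, with 26.1 in replicate 1 and 26.4 in replicate 2), where HP1b is a member of the heterochromatin protein 1 family, and 8 bp at SerRS/CG17260 (signal 109), where SerRS is the seryl-tRNA synthetase. By called position these 3 summits lay 58, 87 and 32 bp inside CG3032, HP1b and SerRS, distances below the fragment length. The longest were 977 bp at Pax/Lectin-galC1 (signal 51.4) and at CG30015/nclb (signal 94.6), and 1000 bp at RpS7/Anp (signal 49.1), which is at the limit of the rule; the nearest pair outside it, Eno/Rrp40, had a gap of 1015 bp and signal 193. On the summit window, CG9921/Dsp1 at 488 bp from its start (signal 41.6) was the last inside and kuk/Keap1 at 521 bp (signal 110.1) the first outside.

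Peak height was close at both kinds of promoter among the peaks of the conservative list. All of these peaks passed the same threshold, so the medians do not describe entries that failed it. The median signal was 82.8 at head-to-head promoters (interquartile range 62.4 to 119, n = 512), against 81.5 at lone promoters (62.7 to 122, n = 597) and 72.2 at summits farther than 500 bp from a start (n = 770). For the ratio of the head-to-head to the lone median, the list of replicate 1 gave 1.00 that of replicate 2 gave 0.943 and the conservative list 1.02, so the ratio lay between 0.943 and 1.02 over these lists.

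Head-to-head peaks leaned toward replicate 2 more often than lone peaks did. The median log2 ratio of replicate 1 to replicate 2 signal was -0.11 over 508 head-to-head peaks with a value in both (SD over peaks 0.49) and 0.06 over 592 lone peaks (SD 0.51). The difference was smaller than the spread over single peaks, which does not measure the uncertainty of a median, and it was not tested. Replicate 2 had the higher value in 302 of 508 head-to-head peaks and in 270 of 592 lone peaks. The scales of the replicates are not given, so only the contrast between both kinds of peak can be read. RpS27/Nup37, with signal 165, had 50.2 in replicate 1 and 121 in replicate 2, and aurA/CG3281, with signal 67.5, had 46.1 in replicate 1 and 23.4 in replicate 2. Of the 512 peaks, 235 overlapped a thresholded peak of both replicates (45.9%, interval 41.6 to 50.2%), 67 that of replicate 1 alone (13.1%), 103 that of replicate 2 alone (20.1%, interval 16.9 to 23.8%) and 107 neither (20.9%). Among the 597 lone peaks, 44.6% overlapped both, 18.3% replicate 1 alone, 13.4% replicate 2 alone (interval 10.9 to 16.4%) and 23.8% neither. Called alone, replicate 1 had summits in 319 head-to-head pairs and replicate 2 in 362, and 227 pairs were shared, which is 71.2% of the replicate 1 pairs and 62.7% of the replicate 2 pairs.

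**Figure D3:**
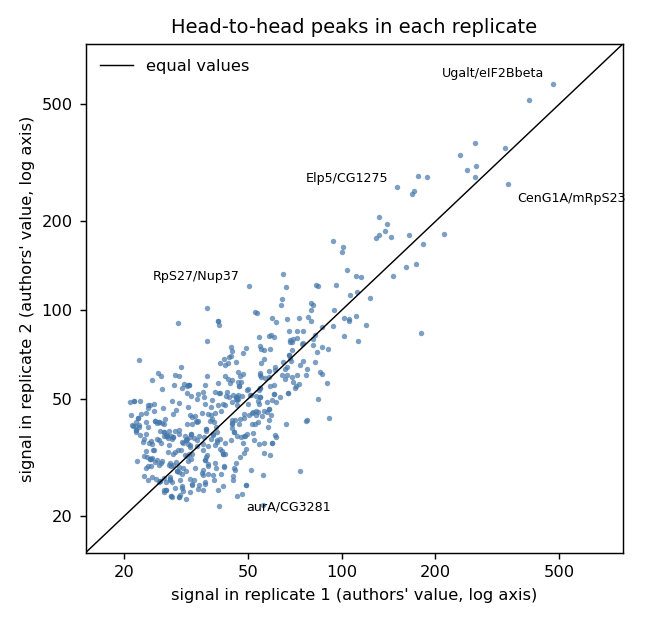
Signal of each head-to-head peak in replicate 1 (horizontal) and replicate 2 (vertical), on log axes, each from the strongest overlapping entry of that replicate's ranked list; the line marks equal values and 5 pairs are named. The peaks follow the line, with 302 of 508 above it and 206 below it.

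Among the 25 gene lists examined, genes of cytoplasmic ribosomal proteins had the largest share with a head-to-head summit in the conservative list and in the list of replicate 1. In the list of replicate 2 it was genes of the nuclear pore (6 of 24, 25%). A gene was counted when its pair held a summit, and 56 of the 953 genes counted (5.88%) had no summit within 500 bp of a start of their own. Of 86 genes for proteins of the cytoplasmic ribosome, 26 belonged to a pair with a summit (30.2%, interval 21.5 to 40.6%), against 6.82% of all protein-coding genes, and they were 49.1% of the 53 that have a head-to-head partner, against 18.9% of all genes with a partner. The strongest was RpL7, with signal 187 (66.3 in replicate 1 and 119 in replicate 2) and the summit 19 bp inside the gene across a gap of 30 bp to Ripalpha. RpL32 had signal 184 (93.6 in replicate 1 and 88.1 in replicate 2), 112 bp upstream of its start, and RpL14 had signal 173 (72.6 in replicate 1 and 93.8 in replicate 2), 40 bp upstream of its start in a gap of 127 bp shared with Nelf-E, a subunit of the pausing factor NELF. The median signal over the ribosomal protein genes was 81.4, close to the 82.8 of all head-to-head peaks. The count was 16 genes (18.6%) in the list of replicate 1 and 21 genes (24.4%) in that of replicate 2, where all protein-coding genes gave 4.57% and 5.18%.

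Genes of mitochondrial translation and respiration gave lower shares. Of 75 genes for mitochondrial ribosomal proteins, 13 were in a pair with a summit (17.3%, interval 10.4 to 27.4%), which is 22.0% of those with a partner, against 18.9% of all genes with a partner, and their median signal was 154. The count was 9 genes (12%) in the list of replicate 1 and 11 genes (14.7%) in that of replicate 2. Of 86 genes of oxidative phosphorylation, 9 were in such a pair (10.5%, interval 5.60 to 18.7%), against 6.82% of all protein-coding genes. This is 20.5% of those with a partner. In the list of each replicate it was 5 genes (5.81%), near the 4.57% and 5.18% of all genes in those lists. Among the 9, ND-24 and ND-ASHI, both subunits of complex I, had signals of 161 (86.6 in replicate 1 and 74.9 in replicate 2) and 153 (61.7 in replicate 1 and 91.3 in replicate 2), and ND-51, a further subunit, had 117 (63.4 in replicate 1 and 50.7 in replicate 2). Of 16 genes of mitochondrial protein import, 1 was counted (6.25%, near the 6.82% of all genes). It was Tom7, of the outer membrane translocase, with signal 104.

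Genes that act in transcription, splicing and translation had head-to-head summits in each list. Of 51 genes for general transcription factors and Mediator subunits, 9 had a head-to-head summit (17.6%, interval 9.57 to 30.3%), led by MED27 (signal 137), Taf5 (127) and MED17 (125). For nuclear RNA polymerase subunits it was 5 of 30 genes (16.7%), led by Polr2H (134), Polr2B (111) and Polr2J (90.7). For splicing factors it was 5 of 32 (15.6%), led by snRNP-U1-C (129), U2af50 (100.7) and SmD3 (68.8). Translation initiation factors had 7 of 44 (15.9%), with eIF2Bbeta (1067.5), eIF3c (101.2) and eIF5B (99.4) the strongest. Of these, eIF2Bbeta counts only as the partner of Ugalt, with the summit 687 bp from its own start. Aminoacyl-tRNA synthetases had 4 of 33 (12.1%), led by GluProRS (159). The list of insulator and chromatin proteins had 5 of 21 (23.8%, interval 10.6 to 45.1%), among them Chro (475), Cp190 (146), a shared cofactor of insulator proteins, and Chd1 (80.9), a nucleosome remodeller. All of these lists but the aminoacyl-tRNA synthetases had intervals that lay above 6.82% in the conservative list. Several of these shares moved with the replicate. In the list of replicate 1, where all genes gave 4.57%, the shares were 13.7% for general transcription factors and Mediator, 10% for RNA polymerases, 9.38% for splicing, 9.09% for initiation factors, 6.06% for aminoacyl-tRNA synthetases and 14.3% for insulator and chromatin proteins. In the list of replicate 2, where all genes gave 5.18%, they were 17.6%, 10%, 6.25%, 13.6%, 12.1% and 14.3% in the same order. When only genes with a partner were counted in the conservative list, the shares of these 6 lists were 17.4 to 33.3%, against 18.9% of all genes with a partner.

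Other lists of general function had 14 of 98 genes for vesicle traffic (14.3%), led by alphaCOP (195), a subunit of the COPI coat, Sec61alpha (146) and Vps33B (123). The nuclear pore had 5 of 24 (20.8%), led by Nup37 (165), Nup98-96 (88.0) and Nup93-2 (74.2). The other two nuclear pore genes, Nup58 and Nup154, had their summits 557 and 729 bp from their own starts and count only through the partner. The nuclear pore share was 23.8% of genes with a partner, against 18.9% of all such genes, and 2 of 24 genes (8.33%) in the list of replicate 1. Vesicle traffic had 10.2% of its genes in the list of replicate 1 and 8.16% in that of replicate 2. In the conservative list its share was 23.0% of genes with a partner, near the 18.9% of all such genes. DNA replication had 3 of 33 (PolD2, dup and Psf1), the proteasome 3 of 48 (Rpn6, Rpn3 and Prosbeta2) and the cell cycle 2 of 27 (Dp and aurA, the Aurora A kinase), shares of 9.09%, 6.25% and 7.41%, beside 6.82% of all genes. Of their genes with a partner the shares were 13.0%, 11.5% and 15.4%, below the 18.9% of all such genes. The Polycomb and trithorax list had 3 of 27 (11.1%, with 7.41% in the list of replicate 1 and 14.8% in that of replicate 2): brm, the ATPase of the Brahma remodelling complex, with signal 320.4 (138 in replicate 1 and 186 in replicate 2) in a gap of 266 bp shared with Arl1, E(z), the methyltransferase of histone H3 lysine 27, with signal 139, and Sfmbt, with signal 66.5. The share of Polycomb and trithorax genes with a partner was 21.4% in the conservative list, near the 18.9% of all such genes. In 5 pairs both genes belonged to lists: RpS27/Nup37, RpL28/eIF1, Rab18/RpL35, RpL9/Nup154 and Prosbeta2/mRpL39. Of the 478 pairs with a summit, 111 had a gene of any list (23.2%). The same shares over all 2667 head-to-head pairs were not computed, so neither count can be read as high or low.

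Genes of the nervous system and of differentiated tissues were nearly absent, and few of them have a head-to-head partner. None of the 10 genes of the neuroblast temporal series, the 23 neuronal identity factors or the 12 genes of midgut and trachea has a head-to-head partner, so none could be counted. No head-to-head summit was found for the 20 genes of neuronal function, 13 of glial cells, 17 of muscle and mesoderm or 14 of haemocytes and fat body, of which only 3, 2, 3 and 2 genes have a partner. Of 26 genes of asymmetric neuroblast division, 7 have a partner and only par-6, a polarity protein, had a summit, with signal 63.7 (32.1 in replicate 1 and 30.8 in replicate 2) 430 bp upstream of its own start, beyond the gap of 328 bp and 102 bp inside its partner CG8188. Of 22 Notch pathway genes, 6 have a partner and only mam, the Mastermind coactivator, had a summit, with signal 54.7 (24.4 in replicate 1 and 29.6 in replicate 2). Neither list had a counted gene in the list of replicate 1 or of replicate 2. With so few genes that have a partner, these counts cannot show a lower share for such genes.

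**Figure D4:**
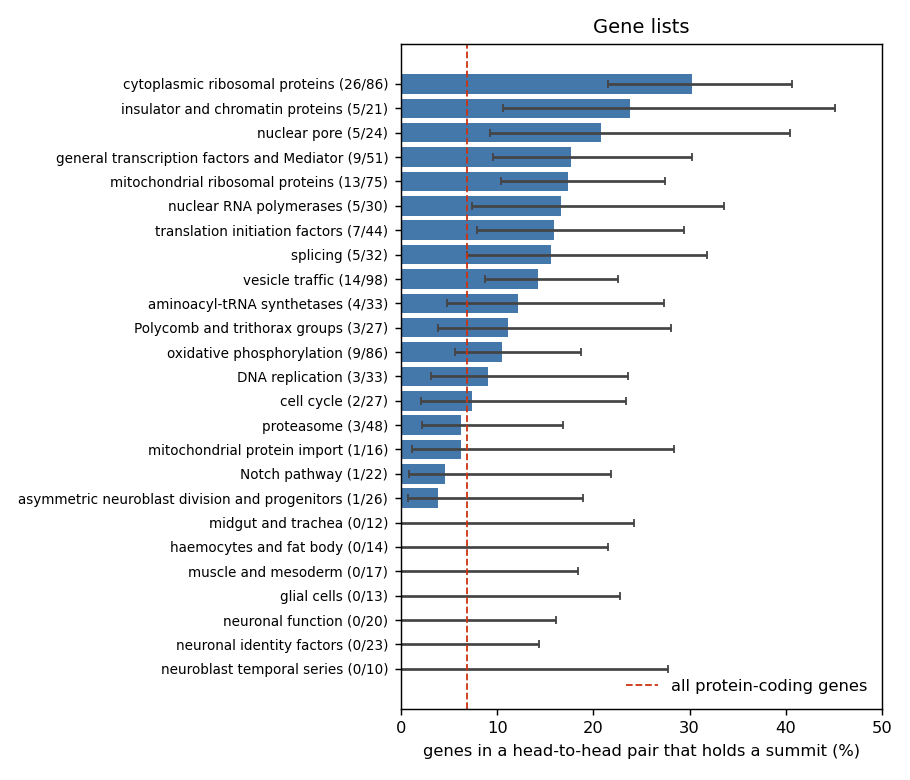
Percent of the genes of each of 25 lists that belong to a head-to-head pair with a summit, with 95% Wilson intervals over genes and the counts beside the names; the dashed line is the 6.82% of all protein-coding genes. In this, the conservative list, cytoplasmic ribosomal proteins stand highest at 30.2%, and the lists at the bottom are at 0.

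Head-to-head pairs with a summit were spread over the large arms but fewer on X. Of the pairs on each arm, 22.6% held a summit on 3L (117 of 518, interval 19.2 to 26.4%), 19.8% on 3R (135 of 683), 17.3% on 2L (88 of 509), 16.8% on 2R (91 of 543) and 11.7% on X (47 of 403, interval 8.88 to 15.2%), and none of the 11 pairs of chromosome 4 did. On X, 50 head-to-head summits stood beside 113 lone ones (30.7% of promoter summits, interval 24.1 to 38.1%), against 128 beside 111 on 3L (53.6%, interval 47.2 to 59.8%). X was also the lowest of the large arms in the list of replicate 1 (6.20%, with 11.97 to 15.3% on the others) and in that of replicate 2 (6.95%, with 13.4 to 16.8% on the others). The differences between arms were not tested. The median signal of head-to-head peaks was 73.2 on X and 75.4 to 91.2 on the other large arms.

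The word TATCGA was present within 50 bp of the summit, on either strand, at 15.2% of head-to-head summits (78 of 512, interval 12.4 to 18.6%), against 10.6% of lone summits (interval 8.34 to 13.3%), 4.94% of summits farther than 500 bp from a start, 14.5% of windows at the midpoint of head-to-head gaps without a summit (n = 2125) and 17.7% of all promoters (the 100 bp upstream of each gene's start and the start itself). The full palindrome TATCGATA gave 6.25%, 2.68%, 0.390%, 5.18% and 6.29% for the same 5 kinds of window, and it contains TATCGA. The intervals of head-to-head summits and of gaps without a summit overlapped for TATCGA. At gaps over 200 and up to 300 bp, the word was present in 13.2% of summit windows (interval 8.80 to 19.3%) and in 6.37% of midpoint windows without a summit (interval 4.31 to 9.30%), but summits and midpoints are not the same distance from the starts. Over the whole of these gaps, which does not depend on the window, TATCGA was found in 47.4% of the 154 pairs with a summit (interval 39.7 to 55.3%) and 40.8% of the 377 pairs without (interval 36.0 to 45.9%), and CGATA in 64.3% (56.5 to 71.4%) and 54.9% (49.9 to 59.9%), with overlapping intervals.

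The word CGATA was more frequent near starts than at summits. Counted in the direction of the nearest start, its centre was 60 to 80 bp from the summit toward that start in 10.7% of the 512 peaks and within 20 bp of the summit in 7.03% on each side. Counted from the nearest start, it was most frequent 40 to 20 bp upstream (91 peaks, 17.8%). In the printed gap of Lamtor3/fws the marked words stand closer to the starts than that. TTAAAA was present at 38.5% of head-to-head summits (interval 34.4 to 42.8%), against 31.7% of lone summits, 32.7% of midpoints without a summit and 20.2% of all promoters, and GAGAG, which the GAGA factor binds, at 7.23%, against 10.7%, 7.86% and 13.3%. At summits farther than 500 bp from a start TTAAAA was at 31.0% and GAGAG at 12.2%.

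The initiator and TATA words, elements of focused core promoters, were less frequent at the starts of head-to-head pairs with a summit than at those of pairs without. TCAGT, the fly initiator core, lay within 10 bp of 4.40% of their 955 starts (interval 3.27 to 5.89%), against 7.38% of the 4009 starts of pairs without a summit (interval 6.61 to 8.23%), and TATAAA lay 45 to 15 bp upstream of 2.30% (interval 1.53 to 3.46%), against 6.49% (interval 5.76 to 7.29%). At the nearest starts of lone summits TCAGT was found in 19.7% (interval 16.6 to 23.1%), and over all genes in 12.2%. TATAAA was found at 2.44% of the nearest starts of lone summits (interval 1.46 to 4.05%), close to the head-to-head value, and over all genes at 8.92%. These words were read on the strand of the gene, and the choice to look at them was made after the data had been seen.

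Base composition moved with peak height. The sequence within 50 bp of the summit had 28.4% ± 8.37 G and C (SD over peaks) in the strongest 128 head-to-head peaks, then 33.2% ± 10.2 and 36.3% ± 10.2 in the middle groups of 128, and 40.3% ± 10.1 in the weakest 128. For lone peaks the values were 31.6%, 35.7%, 36.8% and 43.1%, also strongest to weakest. Over all 512 summits the mean was 34.6% ± 10.6, against 36.8% ± 11.0 at lone summits, 34.0% ± 10.4 at midpoints without a summit and 41.2% ± 9.60 in all promoters. Summits farther than 500 bp from a start had nearly the same mean as head-to-head summits (34.5% ± 10.1). AAATAA, a word picked after the data were seen, was present in 58.6% of the strongest and 23.4% of the weakest head-to-head peaks, against 36.2% and 24.0% of lone peaks. TATCGA was at 6.25%, 14.1%, 23.4% and 17.2% of the same groups of head-to-head peaks, strongest to weakest. The part of base composition in the signal was not tested.

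**Figure D5:**
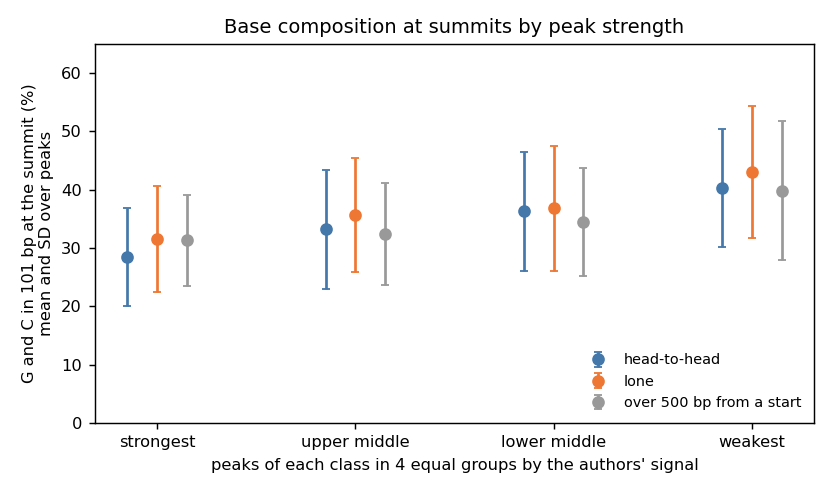
Mean share of G and C within 50 bp of the summit (vertical axis, %, whiskers are the SD over peaks) for head-to-head, lone and distant peaks, each ranked by the authors' signal and split into 4 groups. In head-to-head peaks it runs between 28.4% in the strongest and 40.3% in the weakest group.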

How the data were processed

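Members were the summits described at the opening of the report, and they and the gene lists were chosen with earlier results of these data known. Per the deposited README texts, each peak list (assembly dm6) comes from aligned reads of the replicates it covers, together with other files that were not analysed. Which aligner and peak caller were run, and how, is not given in the sources used here. Irreproducible discovery rate (IDR) filtering is named in the lists, and the main list is the one named conservative. The signal of each peak is a value deposited by the authors, whose scale is not stated; it was used only to describe and rank peaks. Read totals are not in the lists, so depth is unknown, and intervals (95% Wilson, over peaks, genes or pairs, which are not independent replicates) cover counting error only. With 1 group no difference between groups exists and no test was run; classes of peaks are set side by side.

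The summit is the peak start plus the summit offset of the list, as a 1-based position. Starts came from all protein-coding transcripts of the Ensembl release 115 annotation (BDGP6.54, 13968 genes and 19630 starts); the nearest start decided the gene, with 15 summits whose nearest start is shared by genes (the lower gene identifier was taken), and the partner was the gene with the closest divergent start within 1 kb. Peaks on other contigs were not used. Overlap means at least 1 bp. Fixed words (14) were searched on both strands within 50 bp of the summit, at the midpoints of head-to-head gaps without a summit and in the 100 bp upstream of each gene's start with that start ("all promoters"). Named pairs followed a rule: the 20 strongest peaks, up to 3 genes of each of 25 lists, the 3 pairs with the most summits, the 3 shortest and 3 longest gaps, and the pairs next to each limit; RpS27/Nup37 and aurA/CG3281 also serve as examples in the plot of replicates. The words at core promoters, the splits by signal and the words over whole gaps were chosen after the data were seen. Classification and word search were checked on simulated data. Python 3.11.15, numpy 2.4.6, scipy 1.17.1 and matplotlib 3.10.9 were used.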

Additional observations from a re-analysis of the deposited data

How the results depend on the processing

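The lists give no read totals, no input and no scale of the signal, and 2 replicates of 1 strain are all there is. The results below were recomputed with other distance limits, windows, lists and starts. Starts at most 500 bp apart gave 37.2% of promoter summits at head-to-head promoters, 19.6% of pairs with a summit and a median gap of 264 bp; at most 2 kb apart gave 54.7%, 16.0% and 333 bp. A summit window of 250 bp gave 52.0% of promoter summits, and one of 1 kb gave 75.4% between both starts and a median gap of 298 bp. The pooled list gave 20.4% of pairs, a median gap of 298 bp and 39.9% in the lists of both replicates. The upper 50% by signal gave 283 summits, 10.6% of pairs, TATCGA at 11.0%, a signal ratio of 0.956, a median gap of 281 bp and 77.4% in both lists. Using only the most upstream start gave 74.4% between both starts and 279 bp. TATCGA was at 8.01% within 25 bp and 31.6% within 100 bp of the summit, as fewer or more bases were searched. The list of a single replicate gave 334 to 369 summits, 43.6 to 50.1% of promoter summits, 11.96 to 13.6% of pairs, 79.3 to 84.3% between both starts, TATCGA at 11.1 to 16.5%, a signal ratio of 0.943 to 1.00, a median gap of 292 to 295.5 bp and 62.3 to 69.2% in both lists, where each list overlaps itself by construction. The cause of the other changes was not tested. No paired analysis was possible because the series has 1 group.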
